A study of Bos taurus with 4 samples.

Results

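YAP1, its paralogue WWTR1 (TAZ), the DNA-binding factor TEAD1 and 6 genes that YAP and TAZ are known to switch on through TEAD factors were followed in bovine fat cell precursors. The genes were taken by name from a bovine oligonucleotide array, where probes carried the names WWTR1, TEAD1, CTGF, CYR61, ANKRD1, AXL, AMOTL2 and LATS2, which are 8 of the 9 genes asked for. They had 17 probes, among 43653 probes and 25151 gene names in all. No probe with the name YAP1 was used here, so YAP1 itself has no value in what follows.

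RNA came from BIP cells, a line of bovine intramuscular preadipocytes known to have been derived as a clone from the fat depot inside skeletal muscle. Cells were grown to confluence and put into an adipogenic medium with 10% fetal bovine serum, insulin at 50 ng/mL, the glucocorticoid dexamethasone at 0.25 µM, acetic acid at 10 mM, the medium-chain fatty acid octanoate at 5 mM, penicillin and streptomycin, renewed every 2 days. The groups were cells kept for 6 days with all-trans retinoic acid at 1 µM (ATRA), cells kept for 6 days with 9-cis retinoic acid at 1 µM (9cRA), cells kept for 6 days in the same medium without retinoid (day 6 control), and cells at the start of stimulation (day 0). The day 6 control set against day 0 is called the difference over culture. ATRA is the main natural ligand of the nuclear retinoic acid receptors, and 9cRA is its stereoisomer with a cis double bond, which also binds the retinoid X receptors. A vehicle for the day 6 control is not given in the sources used here. Each group is 1 labelled sample with 3 arrays, and nothing in the labels says that the arrays came from separate cultures. The p values therefore rest on how much the 3 arrays of a group varied, and that variation could be technical only.

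YAP and TAZ are transcriptional co-activators without a DNA-binding domain of their own. In human and mouse cells they enter the nucleus when cells are spread, stretched or sparse, and bind TEAD factors on enhancers and promoters of their target genes. The Hippo kinases LATS1 and LATS2 phosphorylate both proteins and so hold them in the cytoplasm, where they are bound or degraded. In preadipocytes of mouse and human, active YAP and TAZ are known to hold back adipogenesis, and TAZ binds and represses PPARG, the master regulator of fat cells. This regulation acts largely on the proteins, so transcript levels of WWTR1 and TEAD1 do not report how active the factors were.

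All values are log2 signals relative to the 75th percentile of the array, so that 0 stands for that percentile and a difference of 1 for a doubling. A gene was represented by its brightest probe, and levels were set against each other only between groups for the same probe. Differences were tested with limma across 17623 genes, and a gene was called if its Benjamini-Hochberg adjusted p was under 0.05. All 8 genes were tested, and the probe used for each was well above background on all 12 arrays. Arrays were printed 4 to a slide. The 9cRA group sat whole on slide 3 together with ATRA array 3, the other ATRA arrays shared slide 2 with day 6 control arrays 2 and 3, and day 6 control array 1 shared slide 1 with the whole day 0 group. The share of probes well above background was 64.8% to 74.0%, lowest on day 6 control array 1, which also had 103 spots marked as non-uniform, against at most 2 on any other array. All 8 fixed stromal markers (among them PDGFRA, COL1A1, COL1A2 and DCN) were well above background on all arrays of all groups. The endothelial marker PECAM1, the macrophage markers AIF1, CD163 and ITGAM and the muscle factor MYF5 were not well above background on any array. Other markers of these cells were well above background on all 12 arrays, among them VWF and TEK (endothelial), PTPRC and CD68 (macrophage) and MYOD1 and DES (muscle).

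With either retinoid, 7 of the 8 genes fell and WWTR1 rose. Against the day 6 control, CYR61 and ANKRD1 fell most with ATRA, with log2 differences of -1.85 and -1.83, and AMOTL2, CTGF, AXL, TEAD1 and LATS2 had differences of -1.33 to -0.32. All 8 were called with ATRA and all 8 with 9cRA, where 46.1% and 46.6% of all tested genes were called. By direction, 22.4% of all tested genes fell with ATRA and 21.8% with 9cRA, while 23.7% rose with ATRA and 24.8% with 9cRA. The arrays of the retinoid and day 6 control groups did not overlap for any of the 8 genes, and for 54% of all tested genes with ATRA and 54.5% with 9cRA. The median difference of the 8 genes was -0.97 with ATRA and -0.86 with 9cRA, against 0.05 and 0.06 over all tested genes. Both retinoid groups were set against the same 3 day 6 control arrays. In RNA from whole cultures, fewer cells of a kind and less RNA per cell cannot be told apart.

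**Figure D1:**
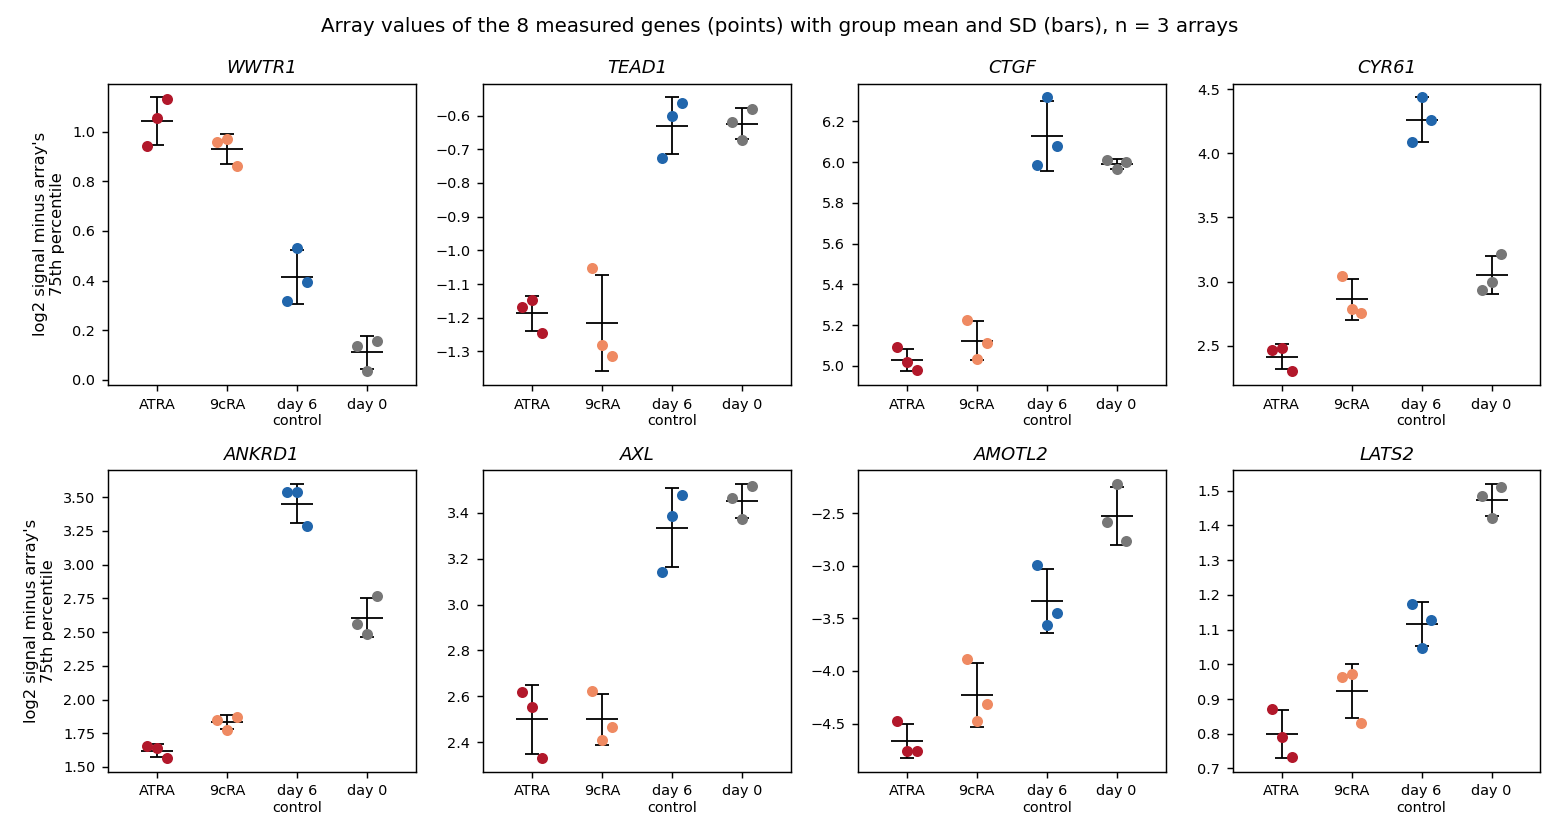
Array values of the 8 genes (vertical axis, log2 signal relative to the 75th percentile, a separate scale for each gene) in the ATRA, 9cRA, day 6 control and day 0 groups. Points are single arrays, and bars show the group mean and SD (n = 3). WWTR1 is highest in the retinoid groups, and the other 7 genes are lowest there, with no overlap with the day 6 control.

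WWTR1, which encodes TAZ, had values of 0.94, 1.06 and 1.13 on the ATRA arrays, 0.96, 0.97 and 0.86 on the 9cRA arrays, 0.32, 0.53 and 0.40 on the day 6 control arrays, and 0.14, 0.03 and 0.16 on the day 0 arrays. Every retinoid array lay above every day 6 control array, which in turn lay above every day 0 array. The ATRA mean was 1.04 ± 0.10 and the day 6 control mean 0.42 ± 0.11 (SD, n = 3 each), a 1.54-fold rise (log2 difference 0.63 ± 0.07 SE, limma adjusted p = 4.59e-05). With 9cRA the rise was 1.43-fold (0.52 ± 0.07 SE, limma adjusted p = 0.000196). Over culture without retinoid WWTR1 rose by 0.31 (limma adjusted p = 0.00364). That last call rests on the probe: the other probe of WWTR1 gave 0.02 over culture (adjusted p = 0.848 in a limma fit across single probes), while it rose by 0.61 with ATRA and by 0.62 with 9cRA.

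TEAD1 encodes a member of the TEAD family, through which YAP and TAZ reach DNA. Its values were -1.17, -1.15 and -1.25 on the ATRA arrays, -1.05, -1.28 and -1.31 on the 9cRA arrays, -0.72, -0.60 and -0.56 on the day 6 control arrays, and -0.62, -0.67 and -0.58 on the day 0 arrays. The 6 retinoid arrays lay below all other arrays, and the day 6 control and day 0 arrays overlapped. TEAD1 fell 1.47-fold with ATRA (log2 difference -0.56 ± 0.07 SE, limma adjusted p = 0.00015) and 1.501-fold with 9cRA (-0.59, limma adjusted p = 0.000109). It did not pass the test over culture (-0.01, 95% interval -0.17 to 0.16, limma adjusted p = 0.953).

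The 3 probes of TEAD1 sample different parts of 1 transcript model and are shown because they did not pass the test alike. They are given 5′ to 3′, with UMD3.1 coordinates on the minus strand of chromosome 15. The first spans an intron, the second was used for the gene, and the third ends on the TAA in capitals, the stop codon of the reading frame that opens at its first base. The annotation in the files does not say which exon each lies in.
TEAD1 A_73_P450006, chr15:40372276-40374849: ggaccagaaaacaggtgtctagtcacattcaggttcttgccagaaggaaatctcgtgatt
TEAD1 A_73_P354196, chr15:40309309-40309368: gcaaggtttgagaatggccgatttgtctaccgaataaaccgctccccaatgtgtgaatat
TEAD1 A_73_P075296, chr15:40303805-40303864: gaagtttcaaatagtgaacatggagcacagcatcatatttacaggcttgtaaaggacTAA

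Against the day 6 control, the probe that ends on the stop codon fell by 0.66 with ATRA and by 0.60 with 9cRA. The intron-spanning probe had differences of -0.38 with ATRA and -0.34 with 9cRA, with the larger standard error of 0.14 and adjusted p of 0.0515 and 0.0727 in the limma fit across single probes. Its means were low, -4.58 with ATRA, -4.55 with 9cRA and -4.20 in the day 6 control, though well above background on all arrays. The position of this probe and its low signal cannot be told apart here. The same sign was thus seen with all 3 probes of TEAD1, and the test was passed by 2 of them.

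CTGF (CCN2) and CYR61 (CCN1) encode secreted proteins of the extracellular matrix and are the most widely used readouts of YAP and TAZ activity. CTGF had values of 5.09, 5.02 and 4.98 on the ATRA arrays, 5.22, 5.03 and 5.11 on the 9cRA arrays, 5.99, 6.32 and 6.08 on the day 6 control arrays, and 6.01, 5.96 and 6.00 on the day 0 arrays. All retinoid arrays lay below all others. CTGF fell 2.14-fold with ATRA (log2 difference -1.10 ± 0.08 SE, limma adjusted p = 2.11e-06) and 2.01-fold with 9cRA (-1.005 ± 0.08 SE, limma adjusted p = 4.50e-06). Over culture without retinoid it was not called (0.14, 95% interval -0.05 to 0.32, limma adjusted p = 0.179). Here 1 array mattered: without day 6 control array 1 the difference over culture was 0.21 and was called (limma adjusted p = 0.0465). With slide as a block it was -0.005 and was not called (limma adjusted p = 0.972). The blocked value rests on that same array alone, since no other day 6 control array shared a slide with day 0. A second probe of CTGF fell by 1.44 with ATRA and by 1.21 with 9cRA. Over culture that probe gave -0.095 and was not called (adjusted p = 0.348 in the limma fit across single probes).

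CYR61 had values of 2.47, 2.48 and 2.30 on the ATRA arrays, 3.04, 2.78 and 2.76 on the 9cRA arrays, 4.09, 4.43 and 4.26 on the day 6 control arrays, and 2.93, 3.00 and 3.21 on the day 0 arrays. The day 6 control arrays stood above all others, the ATRA arrays stood below all others, and the 9cRA and day 0 arrays overlapped. Over 6 days without retinoid CYR61 rose 2.32-fold (log2 difference 1.21 ± 0.11 SE, limma adjusted p = 5.51e-06). Against the day 6 control it fell 3.60-fold with ATRA (-1.85 ± 0.11 SE, limma adjusted p = 4.64e-07) and 2.64-fold with 9cRA (-1.40 ± 0.11 SE, limma adjusted p = 3.86e-06).

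The second probe of CYR61 gave larger differences with retinoid, -2.22 with ATRA and -1.81 with 9cRA, and a smaller one of 1.09 over culture. It is shown because it also moved a call, that of 9cRA against day 0. It spans an intron and lies on the minus strand.
CYR61 A_73_P435656, chr3:58680035-58680220: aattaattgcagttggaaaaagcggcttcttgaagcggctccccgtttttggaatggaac

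ANKRD1 encodes an ankyrin repeat protein best known from stretched heart and skeletal muscle and is a direct target of YAP and TEAD in human and mouse cells. It had values of 1.65, 1.64 and 1.57 on the ATRA arrays, 1.84, 1.77 and 1.87 on the 9cRA arrays, 3.54, 3.54 and 3.29 on the day 6 control arrays, and 2.56, 2.49 and 2.77 on the day 0 arrays. The 4 groups did not overlap, in the order ATRA, 9cRA, day 0, day 6 control from low to high. ANKRD1 rose 1.80-fold over culture (log2 difference 0.85 ± 0.09 SE, limma adjusted p = 1.13e-05). Against the day 6 control it fell 3.56-fold with ATRA (-1.83 ± 0.09 SE, limma adjusted p = 6.82e-08) and 3.08-fold with 9cRA (-1.62 ± 0.09 SE, limma adjusted p = 1.77e-07).

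All 3 probes of ANKRD1 were called in these comparisons. The other probes had log2 differences of -1.93 and -2.03 with ATRA, of -1.76 and -1.81 with 9cRA, and of 0.71 and 0.84 over culture. The probe with the largest fall spans an intron on the minus strand, so it matches spliced transcripts, and is shown for that reason.
ANKRD1 A_73_P409356, chr26:12574854-12575020: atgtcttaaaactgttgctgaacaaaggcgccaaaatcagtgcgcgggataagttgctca

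AXL encodes a receptor tyrosine kinase for the ligand GAS6 and is a YAP target in human tumour cells. Its values were 2.62, 2.55 and 2.33 on the ATRA arrays, 2.62, 2.41 and 2.47 on the 9cRA arrays, 3.14, 3.38 and 3.48 on the day 6 control arrays, and 3.47, 3.37 and 3.52 on the day 0 arrays. The retinoid arrays overlapped each other and lay below all day 6 control and day 0 arrays, which also overlapped each other. AXL fell 1.78-fold with each retinoid (log2 difference -0.834 with ATRA, limma adjusted p = 8.23e-05, and -0.835 with 9cRA, limma adjusted p = 8.51e-05). Over culture it was not called (-0.12, 95% interval -0.35 to 0.11, limma adjusted p = 0.342). It was called there with slide as a block (-0.31, limma adjusted p = 0.0266) and with its other probe (-0.15, adjusted p = 0.0478 in the limma fit across single probes). The blocked value rests on day 6 control array 1 alone, since no other array of its group shared a slide with day 0. The other probe of AXL fell by 0.61 with ATRA and by 0.64 with 9cRA.

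AMOTL2 and LATS2 are targets of YAP and TAZ that act back on them in human cells. AMOTL2 is a scaffold of the angiomotin family that binds YAP and TAZ at cell junctions and on actin, and LATS2 is a kinase that phosphorylates them. AMOTL2 had values of -4.48, -4.76 and -4.76 on the ATRA arrays, -3.89, -4.48 and -4.31 on the 9cRA arrays, -2.99, -3.56 and -3.45 on the day 6 control arrays, and -2.59, -2.23 and -2.76 on the day 0 arrays. It was the most variable of the 8 genes, with SDs of 0.16 to 0.30 within groups. It fell 2.52-fold with ATRA against the day 6 control (log2 difference -1.33 ± 0.20 SE, limma adjusted p = 0.000325) and 1.85-fold with 9cRA (-0.89 ± 0.20 SE, limma adjusted p = 0.00438). With normexp background correction the differences were smaller and still called, -0.65 with ATRA (limma adjusted p = 0.000905) and -0.47 with 9cRA (limma adjusted p = 0.00792). Over culture AMOTL2 fell 1.75-fold (-0.81 ± 0.20 SE, limma adjusted p = 0.00486).

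AMOTL2 was measured with 2 probes on the plus strand of chromosome 1. They are shown because 1 of them reached its limit of detection, and the first of the pair below is the one used for the gene.
AMOTL2 A_73_P096961, chr1:136070521-136070580: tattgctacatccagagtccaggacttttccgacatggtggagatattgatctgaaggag
AMOTL2 A_73_P106246, chr1:136067638-136067697: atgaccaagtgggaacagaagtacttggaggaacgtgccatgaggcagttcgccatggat

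The second of these was not well above background on any of the 3 ATRA arrays, was well above it on 1 of 3 9cRA arrays, and was well above it on all 3 day 6 control and all 3 day 0 arrays. Its level on ATRA arrays is therefore only bounded. The bound sets the mean of the brighter group against, for each ATRA array, the higher of the lowest signal well above background and the probe's own signal. By this bound it was at least 2.21-fold lower with ATRA than in the day 6 control, and at least 3.64-fold lower than at day 0. The bounds themselves were not tested. The limma fit across single probes used the measured signals, among them ATRA signals not well above background. It gave -1.265 against the day 6 control (limma adjusted p = 0.000378) and -1.985 against day 0 (limma adjusted p = 5.43e-06). The measured means of this probe were -5.89 with ATRA, -4.62 in the day 6 control and -3.90 at day 0.

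LATS2 had values of 0.87, 0.79 and 0.73 on the ATRA arrays, 0.96, 0.97 and 0.83 on the 9cRA arrays, 1.17, 1.05 and 1.13 on the day 6 control arrays, and 1.49, 1.42 and 1.51 on the day 0 arrays. The retinoid arrays overlapped each other, lay below the day 6 control arrays, and these lay below the day 0 arrays. The differences were the smallest among the genes that fell: -0.32 ± 0.06 SE with ATRA (limma adjusted p = 0.00142) and -0.19 ± 0.06 SE with 9cRA (limma adjusted p = 0.0221). LATS2 fell by 0.36 over culture (limma adjusted p = 0.000374). The 9cRA call rested on single arrays. Without day 6 control array 1 it was -0.16 (limma adjusted p = 0.0643), and without 9cRA array 3 it was -0.15 (limma adjusted p = 0.0782). LATS2 has 1 probe, so it could not be set against another.

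**Figure D2:**
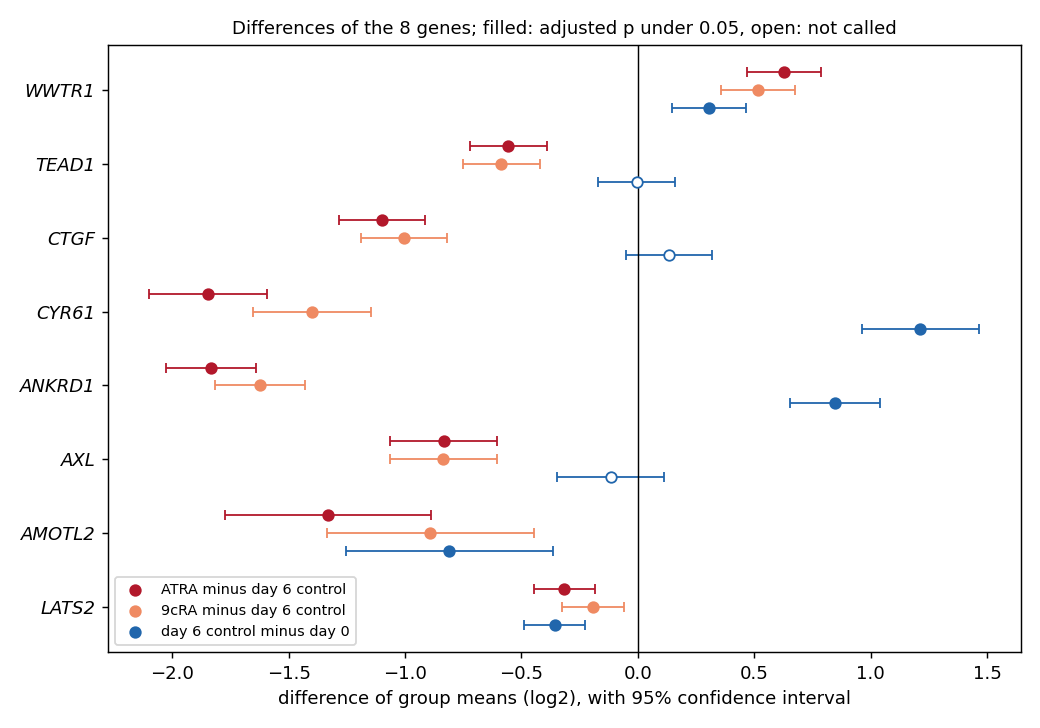
Differences of group means (horizontal axis, log2) for the 8 genes in ATRA minus day 6 control, 9cRA minus day 6 control and day 6 control minus day 0. Bars are 95% confidence intervals from limma, and open points did not pass the adjusted p of 0.05. The retinoid differences lie below 0 for every gene except WWTR1, whereas the culture differences lie on both sides of 0.

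Over the 6 days without retinoid the 8 genes thus took no common direction. WWTR1, CYR61 and ANKRD1 rose, AMOTL2 and LATS2 fell, and TEAD1, CTGF and AXL did not pass the test. This made 5 of 8 called, where 62.3% of all tested genes were called. The arrays of both groups did not overlap for the same 5 genes, where 67.7% of all tested genes did not overlap. Of all tested genes 31% rose and 31.3% fell over culture. The 8 genes were mixed, and their median difference was 0.07, against 0.01 over all tested genes.

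Slides and groups were partly confounded, so each difference was also computed within a slide. ATRA arrays 1 and 2 shared slide 2 with day 6 control arrays 2 and 3, and there the differences were 0.53 for WWTR1, -0.57 for TEAD1, -1.14 for CTGF, -1.88 for CYR61, -1.76 for ANKRD1, -0.84 for AXL, -1.11 for AMOTL2 and -0.26 for LATS2. With slide as a block all 8 calls of ATRA against the day 6 control were kept, with limma adjusted p from 6.42e-06 for ANKRD1 to 0.0181 for LATS2. In that fit 6839 of all 17623 tested genes were called. No slide held both 9cRA and day 6 control arrays, so the blocked value of that comparison runs through the ATRA arrays. There 5 of 8 genes were called, as were 4078 of all 17623 tested genes. TEAD1, CTGF, CYR61, ANKRD1 and AXL were the genes called, with differences of -1.50 to -0.55. WWTR1 (0.33, limma adjusted p = 0.0747), AMOTL2 (-0.57, limma adjusted p = 0.275) and LATS2 (-0.07, limma adjusted p = 0.709) did not pass. Within slide 1, day 6 control array 1 against the 3 day 0 arrays gave 1.04 for CYR61, 0.93 for ANKRD1, -0.30 for LATS2, -0.46 for AMOTL2 and 0.21 for WWTR1. The blocked differences over culture equal these, so they rest on day 6 control array 1 alone of its group. That array had the 103 non-uniform spots. With slide as a block CYR61, ANKRD1 and LATS2 kept their calls over culture, and WWTR1 (limma adjusted p = 0.0776) and AMOTL2 (limma adjusted p = 0.163) lost theirs. Over culture 9438 of all 17623 tested genes were called with this block.

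The probes of a gene did not differ in the sign of any called difference (plot of single probes). With ATRA, 14 of the 17 probes fell, the 2 of WWTR1 rose and 1 of TEAD1 was not called, and the counts were the same with 9cRA. In the limma fit across 31207 single probes, 43.5% of all probes were called in each of these comparisons. Over culture 6 of the 17 rose, 4 fell and 7 were not called, where 61.7% of all probes were called. Between ATRA and 9cRA none of the 17 was called, as against 0.151% of all probes. Against day 0, 2 rose and 14 fell with ATRA, where 70.4% of all probes were called, and 2 rose and 13 fell with 9cRA, where 69.8% were called.

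**Figure D3:**
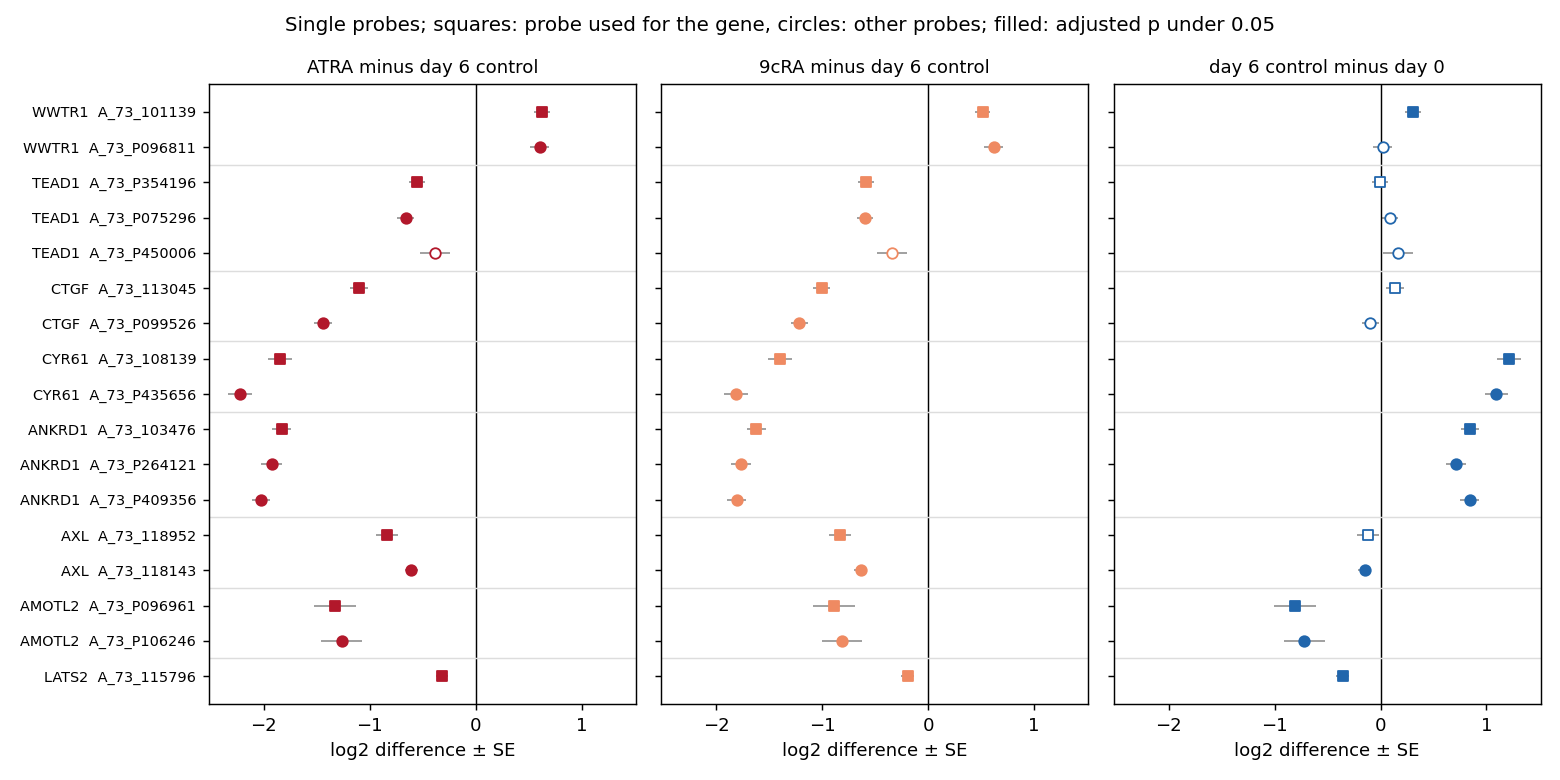
Log2 differences (horizontal axis, ± SE) of the 17 probes of the 8 genes, in ATRA minus day 6 control, 9cRA minus day 6 control and day 6 control minus day 0. Squares mark the probe used for a gene and open symbols did not pass the adjusted p of 0.05 in the fit across single probes. The probes of CYR61, ANKRD1 and CTGF differ in size but not in direction with either retinoid.

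ATRA and 9cRA were given at the same dose and for the same time, and the group means of the 8 genes differed by at most 0.445 on the log2 scale. None of the 8 genes was called between ATRA and 9cRA with limma, where 0.119% of all tested genes were called. At an unadjusted p under 0.05, 2 genes differed, CYR61 and ANKRD1, both lower with ATRA. The share of all tested genes at that unadjusted level is not given here, so this count cannot be set against it. CYR61 had means of 2.42 with ATRA and 2.86 with 9cRA (log2 difference -0.445, 95% interval -0.70 to -0.19, limma adjusted p = 0.212). ANKRD1 had means of 1.62 with ATRA and 1.83 with 9cRA (-0.21, 95% interval -0.40 to -0.02, limma adjusted p = 0.435). The arrays of both groups did not overlap for CYR61, ANKRD1 and AMOTL2, where 16.4% of all tested genes did not overlap. The intervals of the other genes held 0: 0.11 (-0.05 to 0.27) for WWTR1, 0.03 (-0.14 to 0.20) for TEAD1, -0.09 (-0.28 to 0.09) for CTGF, 0.00 (-0.23 to 0.23) for AXL, -0.44 (-0.88 to 0.00) for AMOTL2 and -0.12 (-0.26 to 0.01) for LATS2. These intervals bound a difference between the isomers but do not show that they act alike. Within slide 3, ATRA array 3 against the 3 9cRA arrays gave -0.56 for CYR61, -0.54 for AMOTL2 and -0.26 for ANKRD1.

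Set against day 0 rather than the day 6 control, ATRA-treated cells were higher in WWTR1 (0.93) and lower in the other 7 genes, with limma adjusted p of at most 0.000537. All 8 genes were called and none overlapped, where 71.5% of all tested genes were called (38.7% up and 32.8% down) and 78.5% did not overlap. The differences from day 0 were -0.56 for TEAD1, -0.96 for CTGF, -0.63 for CYR61, -0.99 for ANKRD1, -0.95 for AXL, -2.14 for AMOTL2 and -0.67 for LATS2. With 9cRA, 7 of the 8 were called against day 0 and did not overlap, where 71.4% of all tested genes were called (39% up and 32.4% down) and 78.7% did not overlap. The exception was CYR61, with means of 2.86 with 9cRA and 3.05 at day 0 (-0.19, 95% interval -0.44 to 0.07, limma adjusted p = 0.162). The intron-spanning probe of CYR61 was lower with 9cRA than at day 0 (-0.72, adjusted p = 0.000184 in the limma fit across single probes), so this exception depends on the probe. No slide held retinoid and day 0 arrays together, and with slide as a block ANKRD1, AMOTL2 and LATS2 lost their call for 9cRA against day 0 (limma adjusted p of 0.058, 0.0854 and 0.0547).

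Other genes of the pathway were taken from 3 lists. The first holds Hippo kinases, their scaffolds, YAP inhibitors, the other TEAD genes and VGLL cofactors, and 31 of its 37 genes were tested. With ATRA 4 of these rose and 8 fell, with 9cRA 4 rose and 10 fell, and over culture 9 rose and 11 fell. Of all tested genes, 46.1% were called with ATRA, 46.6% with 9cRA and 62.3% over culture, so the counts of the first list lay near those shares. Their median differences were -0.03 with ATRA, -0.11 with 9cRA and -0.02 over culture, against 0.05, 0.06 and 0.01 over all tested genes. With slide as a block 1 gene of the list rose and 9 fell with ATRA, and 1 rose and 6 fell with 9cRA. Of all 17623 tested genes, 3326 rose and 3513 fell with ATRA in that fit, and 1818 rose and 2260 fell with 9cRA. WWC1 and WWC2 encode KIBRA-family scaffolds that activate LATS kinases. WWC1 averaged -0.98 ± 0.09 with ATRA, -0.94 ± 0.07 with 9cRA, -0.21 ± 0.08 in the day 6 control and -1.65 ± 0.04 at day 0 (SD, n = 3 arrays each), so that it rose by 1.45 over culture and fell by 0.77 with ATRA. With the mean over its probes WWC1 differed by 0.86 over culture (limma adjusted p = 0.0274) and was not called with ATRA (-0.64, limma adjusted p = 0.106) or 9cRA (-0.55, limma adjusted p = 0.16). WWC2 fell by 0.83 with ATRA and by 0.71 with 9cRA. FRMD6, a FERM domain protein upstream of the Hippo kinases, fell by 0.71 with ATRA and by 0.68 with 9cRA. FAT4, an atypical cadherin, fell by 1.12 with ATRA, by 1.21 with 9cRA and by 0.63 over culture. TAOK3, a kinase related to activators of the Hippo kinases, rose by 0.57 over culture and fell by 0.28 with 9cRA.

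Among the other TEAD genes, TEAD3 and TEAD4 fell over culture, by 0.54 and 0.78 (limma adjusted p = 6.27e-06 and 7.39e-07). Neither was called with a retinoid in the main fit. TEAD3 differed by -0.12 with ATRA and -0.11 with 9cRA, and TEAD4 by 0.09 and 0.02. By median scaling TEAD3 was called lower with ATRA (-0.18, limma adjusted p = 0.0244) and 9cRA (-0.17, limma adjusted p = 0.0313). With the mean over its probes TEAD4 was called higher with ATRA (0.28, limma adjusted p = 0.00593) and 9cRA (0.31, limma adjusted p = 0.00348). TEAD2 rose by 0.44 with ATRA (limma adjusted p = 0.0239) and by 0.64 with 9cRA (limma adjusted p = 0.00348). With slide as a block these differences were 0.22 and 0.11. Over culture TEAD2 was not called (0.23, limma adjusted p = 0.172). TEAD1, as given before, fell with both retinoids and was not called over culture. Whether these TEAD genes differed from each other was not tested.

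The second list holds further published targets of YAP and TAZ, of which 23 of 28 were tested. Over culture 12 rose and 6 fell, with a median difference of 0.38. With ATRA 4 rose and 12 fell (median -0.24), and with 9cRA 4 rose and 12 fell (median -0.19). Of all tested genes 31% rose and 31.3% fell over culture, 23.7% rose and 22.4% fell with ATRA, and 24.8% rose and 21.8% fell with 9cRA, with medians of 0.01, 0.05 and 0.06. PTX3, a secreted pentraxin of innate immunity, averaged 4.32 ± 0.14 with ATRA, 4.47 ± 0.06 with 9cRA, 6.74 ± 0.06 in the day 6 control and -0.39 ± 0.04 at day 0 (SD, n = 3 arrays each). It thus rose by 7.13 over culture and fell by 2.42 with ATRA, and ATRA-treated cells still stood 4.71 above day 0. CAV1, the coat protein of caveolae, rose by 1.30 over culture and fell by 2.19 with ATRA and by 1.95 with 9cRA. F3, which encodes tissue factor of the clotting cascade, rose by 1.09 over culture and fell by 2.10 with ATRA and by 1.83 with 9cRA. IGFBP3, a binding protein of insulin-like growth factors, went the other way with retinoid: it rose by 3.73 over culture, and by a further 1.84 with ATRA and 1.80 with 9cRA.

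The third list holds cytoskeletal genes driven by SRF and its MRTF co-activators, and also the genes of SRF and the MRTFs themselves. This pathway, like YAP and TAZ, responds to actin tension and shares some targets with them. Of 23 genes 22 were tested. With ATRA 17 fell and 0 rose (0 also at an unadjusted limma p under 0.05), with a median difference of -0.79. With 9cRA 17 fell and 0 rose (0 also at an unadjusted limma p under 0.05), with a median of -0.73. Over culture 3 rose and 11 fell, with a median of -0.26. Of all tested genes 22.4% fell and 23.7% rose with ATRA, 21.8% fell and 24.8% rose with 9cRA, and 31.3% fell and 31% rose over culture. ACTA2, smooth muscle actin, averaged 2.87 ± 0.08 with ATRA, 2.94 ± 0.24 with 9cRA, 6.73 ± 0.13 in the day 6 control and 7.81 ± 0.004 at day 0 (SD, n = 3 arrays each), and fell by 3.86 with ATRA. TAGLN, the actin-binding protein transgelin, fell by 3.098 with ATRA and by 3.00 with 9cRA. The calponins CNN1 and CNN2 fell with ATRA (-1.58 and -1.497), and over culture CNN1 fell by 1.31 while CNN2 rose by 0.54. MYL9, a myosin light chain, fell by 1.35 with ATRA and by 1.16 over culture. LMOD1, leiomodin, fell by 2.55 with ATRA and by 1.36 over culture.

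**Figure D4:**
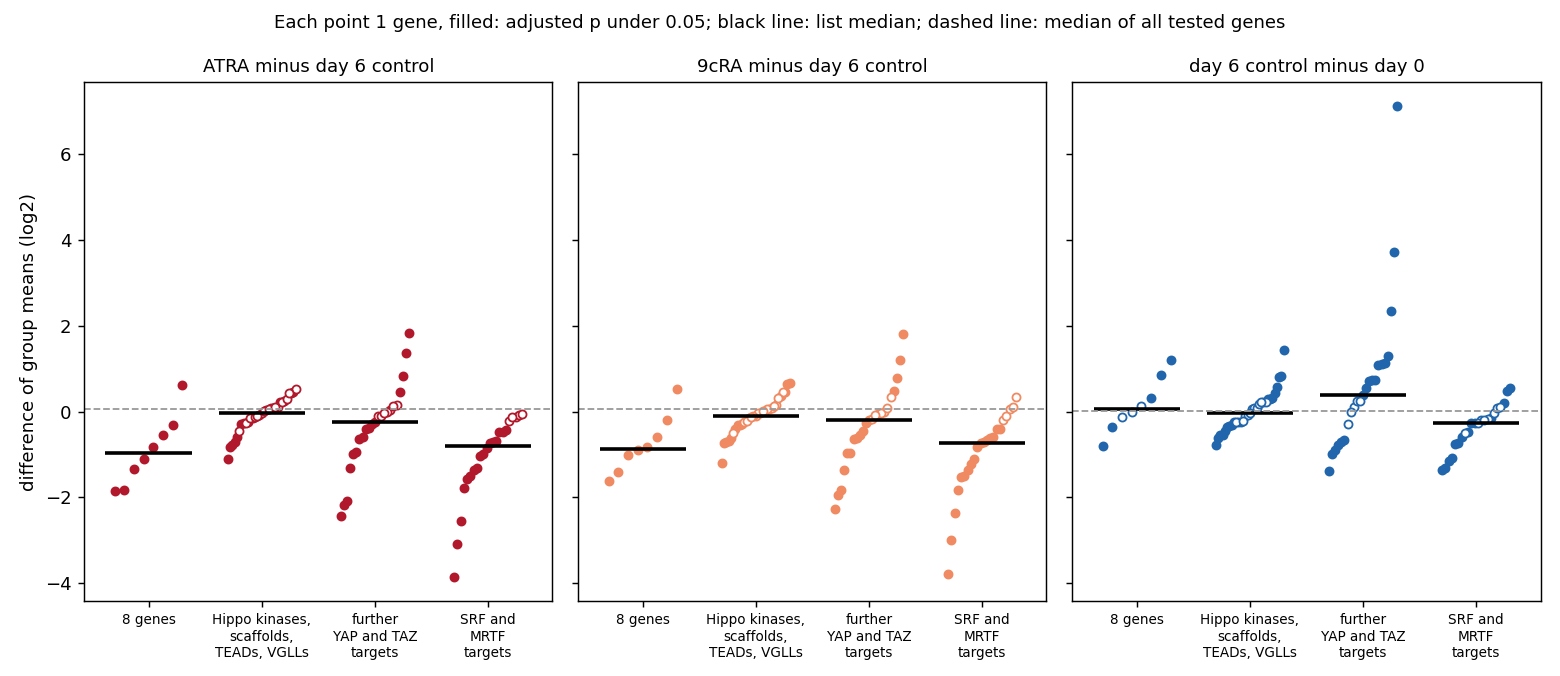
Log2 differences (vertical axis) of the 8 genes and of the tested genes of the 3 lists, in ATRA minus day 6 control, 9cRA minus day 6 control and day 6 control minus day 0. Each point is a gene, filled if its adjusted p was under 0.05, black lines are list medians and the dashed line is the median of all tested genes. With retinoid the points of the SRF and MRTF list lie mostly below 0, and the highest point over culture is PTX3 at 7.13.

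No gene of the 3 lists was called between ATRA and 9cRA with limma. At an unadjusted p under 0.05, 4 of the 31 genes of the first list, 3 of the 23 of the second and 2 of the 22 of the third differed. The share of all tested genes at that unadjusted level is not given here, so these counts cannot be set against it. The lists were described by counts and medians and were not tested as sets.

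Markers of other cells also moved between groups. Linear sums mostly follow their brightest genes, DES among the muscle markers and PTPRC among the macrophage markers. Other genes of a list can therefore move differently from its sum. The summed linear signal of the 7 skeletal muscle markers, relative to the array's 75th percentile, ranged over arrays from 20.1 to 20.4 with ATRA, 21.6 to 23.3 with 9cRA, 45.0 to 49.4 in the day 6 control and 74.1 to 78.9 at day 0. DES, the muscle intermediate filament desmin, had means of 4.07 with ATRA, 4.24 with 9cRA, 5.38 in the day 6 control and 6.12 at day 0. ACTA1, skeletal muscle actin, had means of -0.91 with ATRA, -0.93 with 9cRA, 1.47 in the day 6 control and 2.05 at day 0. MYOD1, a muscle transcription factor, had means of 1.45 with ATRA, 1.51 with 9cRA, 1.20 in the day 6 control and 1.02 at day 0. MYH3 and MYOG, like MYOD1, were lowest at day 0, unlike the sum. MYH3 had means of -2.98 with ATRA, -3.05 with 9cRA, -3.42 in the day 6 control and -6.28 at day 0. It was not well above background on any day 0 array. MYOG had means of -3.81 with ATRA, -3.98 with 9cRA, -4.02 in the day 6 control and -4.45 at day 0. The sum of the 6 macrophage markers ranged from 2.48 to 2.65 with ATRA, 2.22 to 2.66 with 9cRA, 1.08 to 1.79 in the day 6 control and 1.84 to 2.14 at day 0. The sum of the 6 endothelial markers ranged from 0.468 to 0.565 with ATRA, 0.394 to 0.509 with 9cRA, 0.172 to 0.250 in the day 6 control and 0.137 to 0.154 at day 0. That of the 4 epithelial markers ranged from 0.410 to 0.538 with ATRA, 0.479 to 0.510 with 9cRA, 0.352 to 0.430 in the day 6 control and 0.239 to 0.421 at day 0. The sum of the 8 stromal markers ranged from 413 to 450 with ATRA, 425 to 434 with 9cRA, 569 to 603 in the day 6 control and 463 to 482 at day 0. Among these, PDGFRA rose by 1.38 with ATRA, whereas THY1, DCN and LUM fell and the others were not called. The part of these shifts in the values of the 8 genes was not tested.

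Of the genes with a symbol, those whose values over the 12 arrays were most like those of each member were listed by Pearson r. Since the arrays fall into 4 groups, these coefficients mostly describe group means and have no p. Closest to WWTR1 were SLC16A1 (r = 0.993), SURF4 and ZNF140. Closest to TEAD1 were HSPA12A (0.992), AXL and ARHGEF40, so that AXL was among the 3 genes nearest to TEAD1. Closest to CTGF were REEP1 (0.992), LRATD2 and SDC1, and closest to CYR61 were DRAM1 (0.991), IL6 and SLC66A3. The gene closest to ANKRD1 was LUM (0.996), the stromal proteoglycan lumican, which is also 1 of the stromal markers, followed by TMEM47 and QPRT. Closest to AXL were AMD1 (0.991), TTPAL and SGMS1, closest to AMOTL2 were NGLY1 (0.979), ARMCX3 and GEM, and closest to LATS2 were TFAP2C (0.987), MAPKAPK5 and TMEM106B.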

How the data were processed

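Total RNA (100 ng) was labelled with Cy3 and hybridised to 1-colour Agilent arrays, per the labels. The authors deposited linear spot intensity values. Per the file headers, Feature Extraction 10.7.3.1 had subtracted background with detrending, and arrays had not been normalized to each other. A log2 table of group values was also deposited. Comparison with the arrays showed it to hold group means scaled to the 75th percentile and then centred per probe on the median, with column medians of 0.01 (ATRA), 0.02 (9cRA), -0.01 (day 6 control) and 0.01 (day 0). Scale, centring and direction were settled from the values, and the table served as an alternative.

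Of 45220 spots per array, 1417 control spots were left out, as were 191 outlier spots of 525636 over all arrays. No spot was saturated (0). The 75th percentile, 1094 to 1359 signal units, was subtracted after log2, and spots of a probe were averaged. A gene was its probe with the highest mean, tested if at least 1 group had it well above background on its 3 arrays. The 4 groups were fitted together over 12 arrays with limma 3.58.1 (lmFit, eBayes, two-sided) in R 4.3.3, which was tested on simulated data. The simulated arrays had few changed genes and no slide effect, so that test does not cover groups confounded with slides. The number of arrays limits the precision. Genes other than the members were named through accessions in a RefSeq table of assembly ARS-UCD2.0 (28551 of 43653 probes), by current symbol (5107), by older symbol (138) or kept the file's name (9840). Probe sequences and their UMD3.1 coordinates were read from the deposited files.

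List genes were named by a rule, up to 4 with the smallest adjusted p in ATRA against day 6 control and up to 4 over culture. TEAD2 was named outside the rule, to stand beside the other TEAD genes. A gene that the rule takes is not reported here. The members and lists were chosen with earlier results of these data known. Alternatives were another scaling, background, filter, probe summary, slide as a block, the authors' table and leaving out each array. The same settings for the lists, and single probes, were added after seeing the data.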

Additional observations from a re-analysis of the deposited data

How the results depend on the processing

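No difference of the 8 genes that was called in the main fit changed sign under any setting tried. Some differences not called there took either sign, among them those of TEAD1, CTGF and AXL over culture. TEAD1 was 0.08 with the mean over its probes and -0.10 with slide as a block. CTGF was 0.30 by quantile normalization and -0.005 with slide as a block, and AXL was 0.02 and -0.31. The number of the 8 genes called was 5 with slide as a block for 9cRA against the day 6 control, where 4078 genes were called in all, and 4 for 9cRA against day 0, where 7052 were called in all. Leaving out 1 array at a time, the number of the 8 genes called was 8 for ATRA against the day 6 control, 7 to 8 for 9cRA against it, 5 to 6 over culture, 8 for ATRA against day 0, 7 for 9cRA against day 0, and 0 between ATRA and 9cRA. Of all 17623 tested genes, 6916 to 8156 were then called for ATRA and 6688 to 8112 for 9cRA against the day 6 control. Over culture 10019 to 11579 were called, and against day 0 11777 to 12166 with ATRA and 11704 to 12055 with 9cRA. Between ATRA and 9cRA, 21 genes were called in all, with 32 by quantile normalization, 34 with normexp background correction, 4 with no filter on dim genes, 40 with genes well above background on all 12 arrays, 33 with slide as a block, and 0 to 22 leaving out 1 array (0 without ATRA array 3 or without 9cRA array 2). The cause was not tested. Scaling by the median moved the split of higher and lower calls over all genes. It gave 3250 higher and 4396 lower for ATRA against the day 6 control (4184 and 3947 with the 75th percentile), 3359 and 4355 for 9cRA (4372 and 3837), 4730 and 6182 over culture (5465 and 5522), 5514 and 6933 for ATRA against day 0 (6821 and 5780) and 5506 and 6789 for 9cRA against day 0 (6871 and 5705).

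Among single genes, CTGF over culture was also called by quantile normalization (0.30, limma adjusted p = 0.0153), WWTR1 over culture was not called with the mean over its probes (0.16, limma adjusted p = 0.0794), and CYR61 for 9cRA against day 0 was called by median scaling (-0.32, limma adjusted p = 0.0346) and with the mean over its probes (-0.45, limma adjusted p = 0.00209). Of 48 differences of the 8 genes, 46 had the same direction in the authors' deposited table as here and 0 the opposite one, and TEAD1 over culture (0 in that table) and AXL between ATRA and 9cRA (0.00 here) had none. That table holds means of these same arrays at the same scaling, so a shared direction was largely fixed in advance. With slide as a block the first list had 1 gene up and 9 down for ATRA and 1 up and 6 down for 9cRA against the day 6 control, and by median scaling 2 up and 10 down for ATRA. The third list over culture had 5 up and 9 down by quantile normalization. The other totals of called list genes against the day 6 control and over culture stayed within 1.5 times, counts by direction less so, and against day 0 that of the first list was 13 with ATRA and 10 with 9cRA with slide as a block (25 each without). Of all 17623 tested genes, 8611 with ATRA and 7052 with 9cRA were called against day 0 with that block (12601 and 12576 without). No paired analysis was possible because each group is 1 labelled sample whose 3 arrays carry no shared replicate number.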
